A study of Homo sapiens with 6 samples.

Results

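The OTX and GBX genes are 4 homeobox genes, OTX1, OTX2, GBX1 and GBX2, whose products help to place the border between midbrain and hindbrain. Each gene was read in the window of hg19 that was given for it. OTX1 had 28 kb on chromosome 2 from 63267001 to 63295000 and OTX2 had 33 kb on chromosome 14 from 57257001 to 57290000. GBX1 had 39 kb on chromosome 7 from 150836001 to 150875000 and GBX2 had 23 kb on chromosome 2 from 237064001 to 237087000. A peak belonged to a gene when it overlapped its window, which took in 153 of the 142800 peaks of the 4 lists. In the GRCh38.p14 gene table EHBP1 lies within 10 kb of OTX1, OTX2-AS1 within 10 kb of OTX2, and AGAP3 and ASB10 within 10 kb of GBX1, while GBX2-AS1 overlaps GBX2. A peak near an edge of a window can therefore belong to one of those genes. In the GBX2 window a peak away from the edges can also belong to GBX2-AS1.

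The cells were neural progenitors grown from the human embryonic stem cell line H9 and taken on day 11 of a protocol that leads to midbrain dopamine neurons. Boost-Chir cultures were exposed to 7.5 µM CHIR99021 from day 4 until day 10, and Low-Chir cultures to a dose that the labels do not spell out. CHIR99021 is an inhibitor of GSK3 that switches on WNT signalling. Both arms shared a start in 0.7 µM of the compound together with SHH C25II, LDN, SB431542 and a Rock inhibitor, the withdrawal of LDN, SB431542 and SHH on the way, and medium with 3 µM, BDNF, GDNF, TGFβ3, ascorbic acid and dibutyryl cAMP from day 10. H3K4me3, found at active and poised promoters, and H3K27me3, laid down by Polycomb repressive complex 2, were each mapped by ChIP-seq in 1 library per condition, so no difference below has a replicate check and no p-value is given. The cell type label was not checked against marker genes, and no RNA was measured.

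OTX2 is made in the embryonic forebrain and midbrain and stops at the border to the hindbrain. GBX2 is made on the hindbrain side. In mouse and chick embryos the pair repress each other, and the line where they meet becomes the isthmic organizer, a source of FGF8 and WNT1. OTX1 is the close relative of OTX2 and shares part of its work in the mouse midbrain, and gbx1 acts at the same border in the zebrafish embryo. Genes of this kind often carry both marks in progenitors, a state called bivalent.

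The 4 genes differed in how the marks lay over them, and OTX1 had the largest difference in kb between the conditions for each mark. Over OTX1, H3K27me3 peaks covered 3.92 kb in Boost-Chir and 14.9 kb in Low-Chir, while H3K4me3 peaks covered 16.2 kb in Boost-Chir and 8.94 kb in Low-Chir. OTX2 had broad H3K4me3 of 15.9 kb in Boost-Chir and 15.0 kb in Low-Chir, and GBX2 was mostly under H3K27me3, with 16.1 kb in Boost-Chir and 19.5 kb in Low-Chir. GBX1 carried H3K27me3 and hardly any H3K4me3 in either condition.

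**Figure D1:**
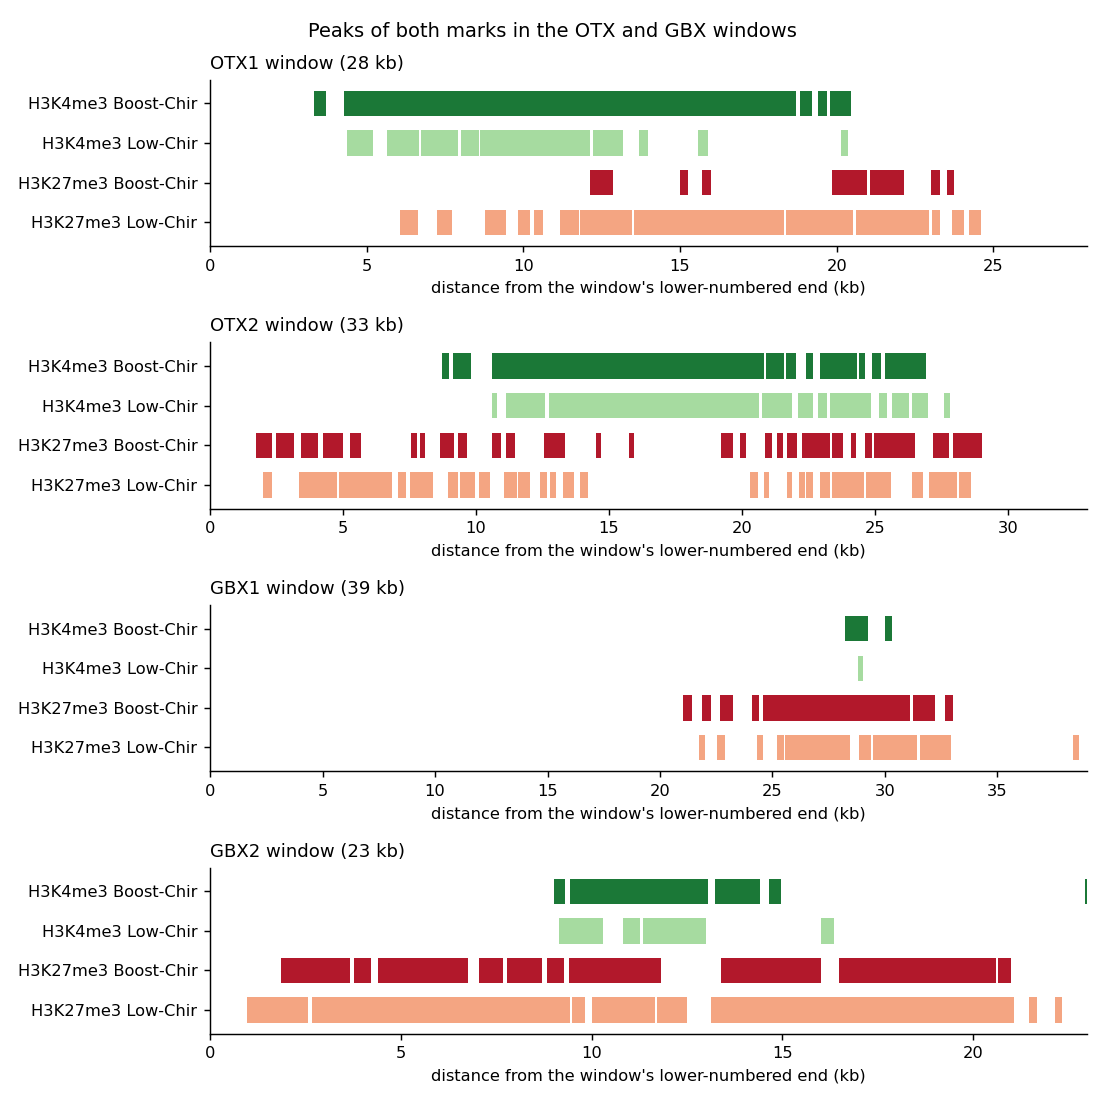
Peaks of H3K4me3 (green) and H3K27me3 (red) in the 4 windows, with Boost-Chir (dark) above Low-Chir (light) for each mark. The x axis is the distance in kb from the lower-numbered end of each window. In the OTX1 window a single long H3K4me3 peak in Boost-Chir faces a row of shorter ones in Low-Chir, and the long run of H3K27me3 in Low-Chir is reduced to 7 short peaks in Boost-Chir.

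A window was called longer or shorter for a mark when its covered length differed by at least 1.5 times and at least 1 kb between the conditions. By this rule H3K4me3 was longer in Boost-Chir in 3 of the 4 windows (OTX1, GBX1 and GBX2) and shorter in 0. H3K27me3 was shorter in Boost-Chir in 1 window (OTX1), longer in 0, and past neither limit in 3. For comparison, the genome was cut into 30 kb tiles, and the tiles with at least 1 kb of a mark in either list were passed through the same rule. H3K4me3 was longer in Boost-Chir in 20.5% of 12815 tiles and shorter in 1.28%. H3K27me3 was longer in Boost-Chir in 10.9% of 4298 tiles and shorter in 20.9%, so that 1 window of 4 is close to the general rate. The median tile had 1.29 times as much H3K4me3 in Boost-Chir as in Low-Chir and 0.913 times as much H3K27me3. The genome background recovered from the peak lists, taken as a measure of depth, was 1.21 times as high for H3K4me3 in Boost-Chir. Read totals were not used. The tiles were laid without regard to genes, whereas the windows were placed on genes, so the shares describe the genome and are no test.

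**Figure D2:**
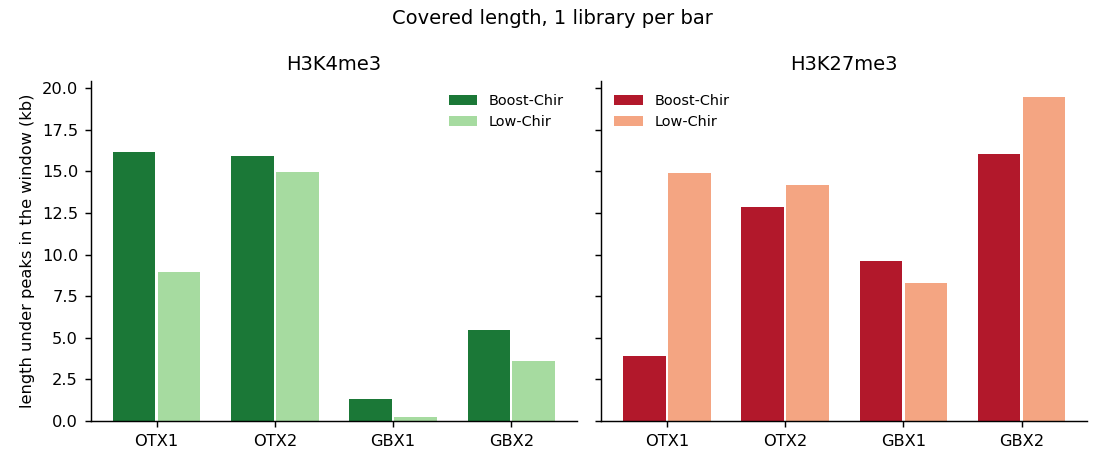
Length under H3K4me3 peaks (left) and H3K27me3 peaks (right) in the OTX1, OTX2, GBX1 and GBX2 windows, in kb, with Boost-Chir left of Low-Chir. Each bar is 1 library, so there is no error bar. OTX1 has the widest gap between the bars of a pair in both panels.

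Promoters rich in CG pairs are the usual seat of both H3K4me3 and Polycomb marks. For that reason the 250 bases upstream of each start are given here from RefSeq (GRCh38.p14), 5′ to 3′ on the gene's strand, with every CG in capitals. The promoters were not placed on hg19, so whether a given peak covers them was not read.
OTX1 (chr2:63050580-63050829, plus strand): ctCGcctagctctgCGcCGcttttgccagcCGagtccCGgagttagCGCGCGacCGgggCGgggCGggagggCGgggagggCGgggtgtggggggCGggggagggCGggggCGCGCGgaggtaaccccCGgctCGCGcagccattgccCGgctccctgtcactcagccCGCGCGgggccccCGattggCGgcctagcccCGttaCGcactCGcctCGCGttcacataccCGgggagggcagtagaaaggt
OTX2, the start furthest upstream (chr14:56810480-56810729, minus strand): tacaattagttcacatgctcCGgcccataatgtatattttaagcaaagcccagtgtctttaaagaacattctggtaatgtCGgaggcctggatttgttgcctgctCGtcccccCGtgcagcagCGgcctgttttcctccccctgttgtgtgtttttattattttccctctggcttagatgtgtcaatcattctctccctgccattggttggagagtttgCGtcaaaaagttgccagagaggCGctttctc
GBX1 (chr7:151167695-151167944, minus strand): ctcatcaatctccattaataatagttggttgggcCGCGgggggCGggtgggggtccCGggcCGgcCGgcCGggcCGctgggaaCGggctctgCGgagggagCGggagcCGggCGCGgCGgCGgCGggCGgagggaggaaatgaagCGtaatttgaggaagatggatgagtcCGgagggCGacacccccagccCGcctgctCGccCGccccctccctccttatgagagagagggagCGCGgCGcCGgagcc
GBX2 (chr2:236168387-236168636, minus strand): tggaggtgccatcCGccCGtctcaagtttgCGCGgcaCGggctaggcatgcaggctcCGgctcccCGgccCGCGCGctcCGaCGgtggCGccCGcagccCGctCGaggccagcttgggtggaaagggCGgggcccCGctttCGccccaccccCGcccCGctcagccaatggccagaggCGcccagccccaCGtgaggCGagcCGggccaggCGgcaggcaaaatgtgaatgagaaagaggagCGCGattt

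OTX1 held 33 CG pairs in this stretch and GBX1 and GBX2 held 28 each, against a median of 11 over 35116 human promoters. OTX2 held 7 at the start furthest upstream and 4 at its other listed start. OTX2, the gene with the fewest CG pairs at its starts, had the highest H3K4me3 summit of the 4 windows in both conditions, with counting intervals that overlapped those of OTX1. A link between CG pairs and summit height was not tested. The TCF/LEF motif CTTTGAT, searched on both strands, was found in none of the 5 promoter stretches and in 2.26% of all promoters. The motif TAATCC, which OTX proteins bind, was also found in none of the 5, against 5.62% of all promoters. The shorter TCF/LEF core CTTTG had 1 match, at the OTX2 start furthest upstream, and was found in 42.1% of all promoters.

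OTX1 had 5 H3K4me3 peaks in Boost-Chir and 9 in Low-Chir. The longest Boost-Chir peak ran from 63271264 to 63285708, a length of 14445 bp that ranked 9 among the 46793 H3K4me3 peaks of that list. In Low-Chir the longest peak was 3511 bp, from 63275630 to 63279140. Every base under H3K4me3 in Low-Chir was also under it in Boost-Chir (100%), and 7.22 kb was added. The longest added stretch was 2.82 kb, from 63282890 to 63285708, between the last Low-Chir peaks of the window. Many of the Low-Chir peaks were parted by short gaps. With peaks within 3 kb joined, H3K4me3 covered 17120 bp in Boost-Chir and 11775 bp in Low-Chir, which was no longer past the limit of 1.5 times.

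H3K27me3 over OTX1 had 7 peaks in Boost-Chir and 13 in Low-Chir. Of the Low-Chir length, 24.5% was still under a Boost-Chir peak, and 93.5% of the Boost-Chir length lay within Low-Chir peaks. The first H3K27me3 peak of the window began at 63279123 in Boost-Chir and at 63273073 in Low-Chir. The lower-numbered stretch of the domain thus had no called H3K27me3 peak in Boost-Chir, where it lay under the long H3K4me3 peak. The Low-Chir H3K27me3 peaks wholly within that stretch had 16 to 23 summit reads, against a median of 20 in that list. A missing call there need not mean a missing mark. Of the Boost-Chir peaks, 4 lay at the other end of the domain, beyond 63286860, among them the longest, of 1109 bp. In Low-Chir the longest was 4781 bp, from 63280536 to 63285316.

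Of the 11271 bp over OTX1 that were under H3K27me3 in Low-Chir and not in Boost-Chir, 5214 bp gained H3K4me3, 4041 bp carried H3K4me3 in both conditions and 2016 bp were under neither mark in Boost-Chir. Of the 5.10 kb that carried both marks in Low-Chir, 79.3% carried H3K4me3 alone in Boost-Chir, against 25.9% of all such bases in the genome. The same share was 42.8% over OTX2, 0% over GBX1 and 25.8% over GBX2. Of the 9.84 kb that carried H3K27me3 alone in Low-Chir, 53.0% carried H3K4me3 alone in Boost-Chir, against 2.27% in the genome. That share was 5.27% over OTX2, 0% over GBX1 and 0.924% over GBX2. The genome shares pool all such bases, whether or not H3K4me3 lay near, while those of OTX1 lay in a window with broad H3K4me3. They are therefore no matched comparison. H3K4me3 alone held 14.3 kb of the OTX1 window in Boost-Chir and 3.84 kb in Low-Chir. Among the 1116 tiles with a mean of at least 5 kb of H3K27me3 over the 2 conditions, 1.7% had a ratio of Boost-Chir to Low-Chir length at or below the 0.262 of OTX1. It was 0.664% of the 903 such tiles that held both marks, and 9.82% of all 4298 H3K27me3 tiles. Among the 2141 tiles with a mean of at least 5 kb of H3K4me3, 4.39% had a ratio at or above the 1.81 of OTX1. It was 6.67% of the 405 such tiles that held both marks, and 12.2% of all 12815 H3K4me3 tiles.

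**Figure D3:**
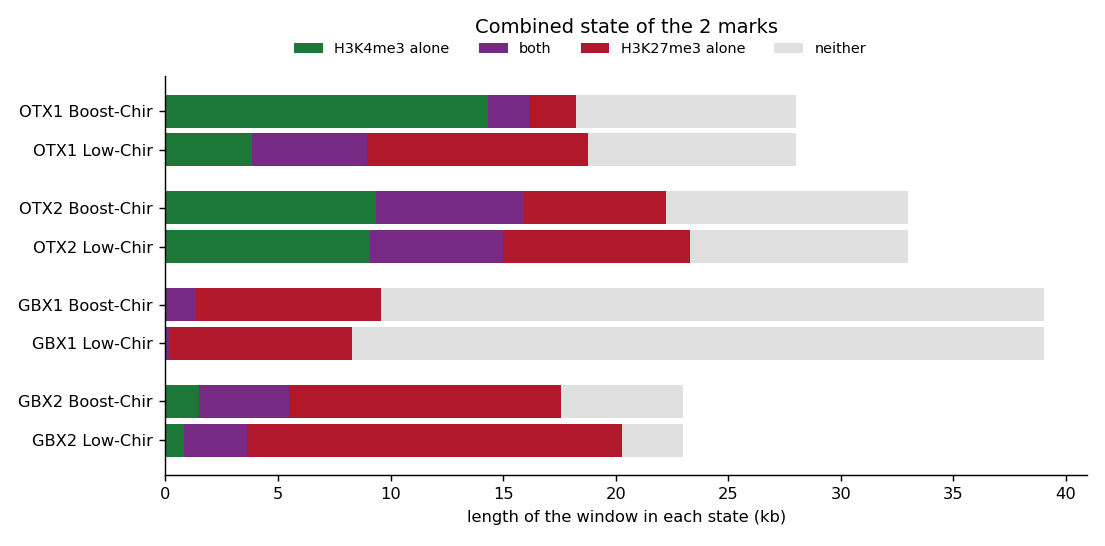
Length of each window, in kb, under H3K4me3 alone, under both marks, under H3K27me3 alone and under neither, with Boost-Chir above Low-Chir for each gene. In OTX1 the green part is 14.3 kb in Boost-Chir and 3.84 kb in Low-Chir, while the bars of the other 3 genes differ less between the conditions.

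OTX2, the gene of the midbrain side, had nearly the same H3K4me3 length in both conditions, with a ratio of Boost-Chir to Low-Chir of 1.06. Its 10 Boost-Chir peaks covered 15.9 kb and its 11 Low-Chir peaks 15.0 kb, and 90.9% of the Low-Chir length was under a Boost-Chir peak. The main peak was 10205 bp in Boost-Chir, from 57267623 to 57277827, and 7900 bp in Low-Chir, from 57269765 to 57277664. The Boost-Chir peak ranked 34 by length in its list and the Low-Chir peak 23. A ratio of 1.06 was below the 1.29 of the median tile, and 79.2% of the 12815 H3K4me3 tiles had a ratio at or above it.

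H3K27me3 over OTX2 was scattered, with 26 short peaks in Boost-Chir and 25 in Low-Chir. They covered 12.8 kb in Boost-Chir and 14.2 kb in Low-Chir, a ratio of 0.904, and only 53.8% of the Low-Chir length was under a Boost-Chir peak. The longest peak was 1543 bp in Boost-Chir and 2010 bp in Low-Chir. Within the domain lay a stretch free of H3K27me3 peaks, of 3.27 kb in Boost-Chir (57272943 to 57276214) and 6.08 kb in Low-Chir (57271221 to 57277302). It was fully under H3K4me3 in both conditions. Both marks together covered 6.57 kb of the window in Boost-Chir and 5.87 kb in Low-Chir. The direction for H3K27me3 over OTX2 turned with the treatment of gaps: with peaks within 3 kb joined it was 3486 bp longer in Boost-Chir. With the top 50% of each list alone it was 6040 bp in Boost-Chir and 11084 bp in Low-Chir, a difference past the limits.

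GBX2, the gene of the hindbrain side, was under H3K27me3 over 69.9% of its window in Boost-Chir and 84.6% in Low-Chir. The ratio of 0.826 stayed within the limits, and 80.4% of the Low-Chir length was also under a Boost-Chir peak. The longest H3K27me3 peak was 4113 bp in Boost-Chir, from 237080489 to 237084601, and 7944 bp in Low-Chir, from 237077132 to 237085075. The longest break in the domain was 1.58 kb in Boost-Chir, from 237075812 to 237077390, and 0.621 kb in Low-Chir, from 237076511 to 237077131. H3K4me3 peaks covered 88.2% of that break in Boost-Chir and 78.4% in Low-Chir.

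H3K4me3 over GBX2 covered 5474 bp in Boost-Chir and 3604 bp in Low-Chir, a ratio of 1.52 that was only just past the limit of 1.5. It fell below the limit with windows widened by 5 kb (6232 bp in Boost-Chir and 4162 bp in Low-Chir) and with peaks within 3 kb joined (6020 bp in Boost-Chir and 4199 bp in Low-Chir). A ratio at least as high was seen in 26.0% of the 12815 H3K4me3 tiles. The main peak was 3623 bp in Boost-Chir, from 237073428 to 237077050, and 1661 bp in Low-Chir, from 237075337 to 237076997. Bases under both marks made up 4.00 kb in Boost-Chir and 2.79 kb in Low-Chir, so that most of the H3K4me3 over GBX2 sat on bases with H3K27me3 in both conditions. A peak at the upper edge of the window lay almost wholly outside it in both lists.

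GBX1 carried a compact H3K27me3 domain of 9.60 kb in Boost-Chir and 8.27 kb in Low-Chir, a ratio of 1.16. The 7 Boost-Chir peaks were led by one of 6550 bp, from 150860571 to 150867120, and the 9 Low-Chir peaks by one of 2901 bp, from 150861560 to 150864460. The window was the only one of the 4 with a greater H3K27me3 length in Boost-Chir. Most of it, 75.4% in Boost-Chir and 78.7% in Low-Chir, was under neither mark.

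H3K4me3 over GBX1 amounted to 2 peaks with 1342 bp in Boost-Chir and 1 peak with 213 bp in Low-Chir. The Low-Chir peak, from 150864811 to 150865023, was weak, with 14 reads at its summit and a −log10 q of 5.02. The Boost-Chir peak over the same place ran from 150864234 to 150865253, with 20 reads and a −log10 q of 9.36. All 1342 bp of the Boost-Chir H3K4me3 lay on bases with H3K27me3. The ratio of 6.30 rests on these few reads, and with peaks of −log10 q of at least 5 alone the difference was 807 bp, under the limit of 1 kb.

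Both marks overlapped by at least 1 bp in 4 of the 4 windows in Boost-Chir and in 4 of the 4 in Low-Chir. Among genome tiles with a peak of either mark, 16.7% of 17935 had such an overlap in Boost-Chir and 17.7% of 17222 in Low-Chir. That base takes in tiles with only 1 of the marks, where no overlap is possible, whereas all 4 windows held both. The tile shares are therefore no matched comparison for the windows. Over GBX1 the Low-Chir overlap was 184 bp long. With the top 50% of each list alone, the marks overlapped in 3 windows in Low-Chir (OTX1, OTX2 and GBX2) and still in 4 in Boost-Chir. These are bulk samples, so an overlap of peaks does not show both marks on the same chromosomes, and fewer cells with a mark cannot be told apart from less of the mark per cell.

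Peak heights were compared at the summits. The highest OTX2 H3K4me3 peak, by the authors' fold enrichment, reached 15.6-fold in Boost-Chir and 10.0-fold in Low-Chir. The reads recovered at those summits, 59 in Boost-Chir and 48 in Low-Chir, were 22.1 times the genome background in Boost-Chir and 21.7 times in Low-Chir, a ratio per unit of depth of 1.02 (exact 95% interval 0.683 to 1.52, counting error only). The local background that the authors' peak caller used at the summit was 1.07 times the genome background in Boost-Chir and 1.76 times in Low-Chir, and the summits were at 57275137 in Boost-Chir and 57277000 in Low-Chir. The difference in fold enrichment thus went with a difference in the local background, while the reads per depth differed by less than the counting error.

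For OTX1 the highest H3K4me3 summit had 46 reads in Boost-Chir and 31 in Low-Chir, a ratio per depth of 1.23 (0.762 to 2.00). The highest H3K27me3 summit over OTX1 had 23 reads in Boost-Chir and 33 in Low-Chir, a ratio of 0.717 (0.402 to 1.26). For GBX2 the H3K4me3 summit of highest fold had 18 reads in Boost-Chir and 22 in Low-Chir, a ratio of 0.677 (0.342 to 1.32), but the summits with the most reads, 31 in Boost-Chir and 26 in Low-Chir, gave 0.987. Those summits stood on a local background of 2.02 times the genome background in Boost-Chir and 2.82 times in Low-Chir. None of the intervals of the 8 highest summits (4 genes, 2 marks) left out a ratio of 1. At these read numbers an interval spans more than a doubling, so equal heights were not shown either. The 2 summits of a pair lay between 0.286 kb (GBX2 H3K27me3) and 2.37 kb (GBX1 H3K27me3) apart. Each was chosen as the highest of its window, and the intervals do not allow for that choice.

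**Figure D4:**
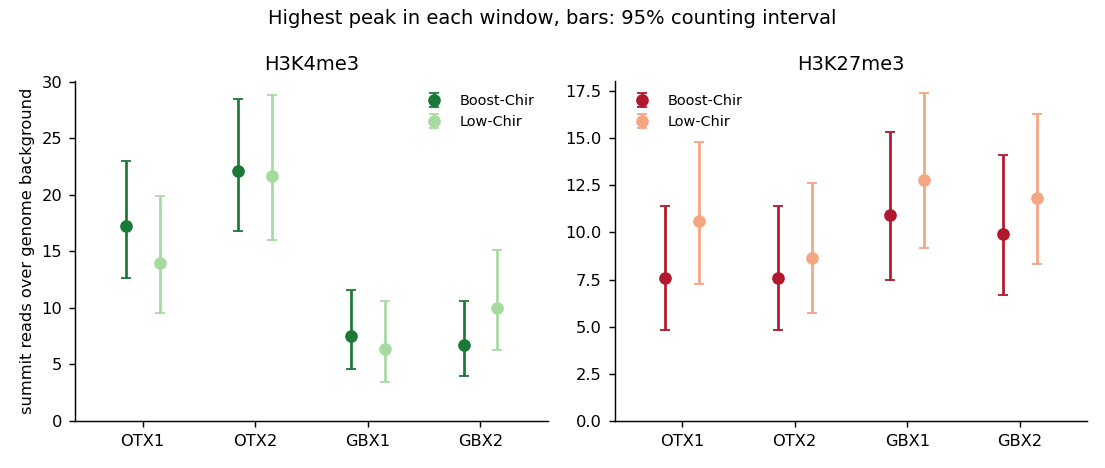
Reads at the highest peak of each window by fold enrichment, divided by the genome background of the library, for H3K4me3 (left) and H3K27me3 (right), with Boost-Chir left of Low-Chir. Bars are exact 95% Poisson intervals for the reads and cover counting error only, and those of each pair overlap.

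Within a condition the summits of the 4 genes were set side by side, each at its peak of highest fold. In Boost-Chir, H3K4me3 summits were 22.1 times the genome background at OTX2 and 17.2 times at OTX1, with intervals that overlapped, and 7.48 times at GBX1 and 6.73 times at GBX2. In Low-Chir the values were 21.7 at OTX2, 14.0 at OTX1, 9.95 at GBX2 and 6.33 at GBX1. The intervals of OTX2 lay above those of GBX1 and GBX2 in both conditions (16.8 to 28.5 against at most 11.6 in Boost-Chir, and 16.0 to 28.8 against at most 15.1 in Low-Chir). For GBX2 this depended on the summit. Its summit with the most reads stood at 11.6 times the background in Boost-Chir (7.88 to 16.5), above that of GBX1, and at 11.8 times in Low-Chir (7.68 to 17.2), an interval that overlapped that of OTX2. The intervals of OTX1 overlapped those of OTX2 in both conditions, and in Low-Chir also those of GBX1 and GBX2. For H3K27me3 the order in Boost-Chir was GBX1 at 10.9, GBX2 at 9.89, and OTX1 and OTX2 at 7.58 each. In Low-Chir it was GBX1 at 12.8, GBX2 at 11.8, OTX1 at 10.6 and OTX2 at 8.65, and the intervals of all 4 genes overlapped in either condition.

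**Figure D5:**
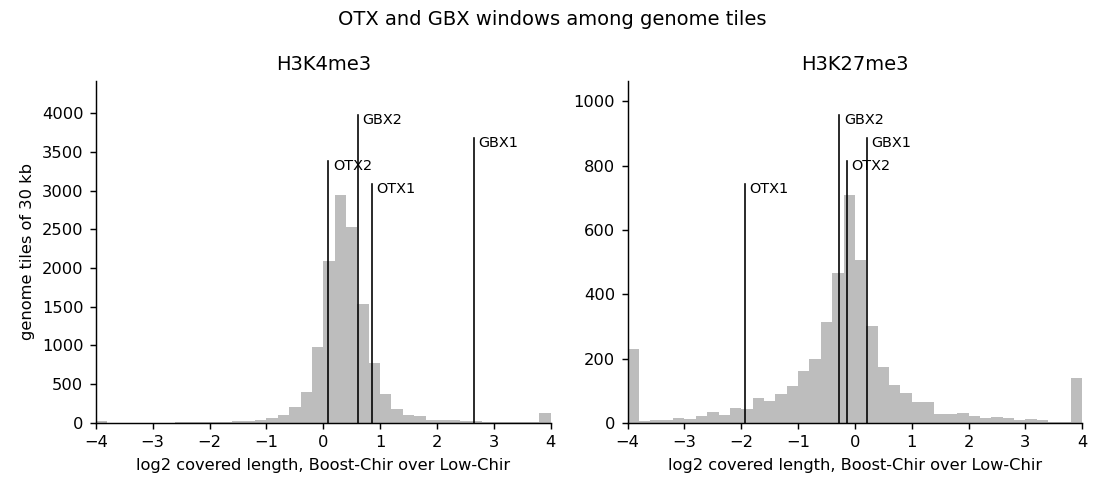
Ratio of covered length, Boost-Chir over Low-Chir, on a log2 scale, for 30 kb genome tiles with at least 1 kb of the mark in either list (grey, number of tiles), with the 4 windows as black lines whose height has no meaning. Values beyond the axis, including tiles with a mark in 1 list only, are gathered in the end bins. OTX1 (ratio 0.262) stands apart from the other windows for H3K27me3, and GBX1 (6.30) for H3K4me3.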

How the data were processed

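ChIP-seq peak lists of 4 antibody libraries were used. The 2 input samples were not analysed here as files of their own. Reads were handled with cutadapt 1.6, BWA 0.7.12 and Picard on hg19, per the submitters' processing notes. The peak caller is not given in the sources used here. Names of the deposited peaks pair each antibody library with its condition's input. The authors' values per peak are a fold enrichment, which is a ratio to background, and −log10 of p-value and q-value. The deposited score repeats the q-value in whole steps and was left out.

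Covered length was summed over peaks clipped to each window. Reads at a summit were recovered from fold, taken as (reads + 1) over (background + 1), and a Poisson p-value, a solution that met 100% of the deposited −log10 p-values with a tolerance of 0.001. For the H3K27me3 lists reads entered in steps of 0.977 (Boost-Chir) and 0.909 (Low-Chir). Genome background was the lowest background recovered in a list and was taken as a measure of depth. It was 2.67 reads in Boost-Chir and 2.21 in Low-Chir for H3K4me3, and 3.03 in Boost-Chir and 3.12 in Low-Chir for H3K27me3. Median summit reads were 17 to 20 per list. The calculations were tested on simulated data. Intervals are of the exact Poisson form for a given count and cover counting error only. They make no allowance for the choice of the highest summit in a window. Python 3.11.15, numpy 2.4.6, scipy 1.17.1, pandas 2.3.3 and matplotlib 3.10.9 were used.

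The 4 genes, their windows and the rules were chosen with earlier results of these data known. All 4 genes are described whatever their values. No annotation of hg19 was at hand, so other genes of the border and marker genes were not measured.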

Additional observations from a re-analysis of the deposited data

How the results depend on the processing

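No paired analysis was possible because neither condition has more than 1 library of a mark, and for the same reason no replicate could be left out. The number of windows with longer H3K4me3 in Boost-Chir was 1 with peaks within 3 kb joined (GBX1), and 1 by a difference of 2 kb alone (OTX1). It was 2 with a −log10 q of at least 5 (OTX1 and GBX2) and 2 with windows widened by 5 kb (OTX1 and GBX1). Under the remaining alternatives it stayed at 3. The number with shorter H3K27me3 was 2 with the top 50% of each list and 2 with a −log10 q of at least 5 (OTX1 and OTX2 in both). Of 48 covered lengths of a gene and mark under an alternative, 41 kept their direction and side of the limits, 6 kept only the direction, and 1 reversed (OTX2 H3K27me3 with peaks joined, 3486 bp). The 41 include lengths that merely repeat the main ones: all under the depth alternative, and those of OTX1, OTX2 and GBX1 with windows widened by 5 kb. H3K4me3 over OTX2 and GBX1 with windows narrowed by 5 kb also repeated the main lengths. For H3K27me3 over OTX1, GBX1 and GBX2, the top 50% and the −log10 q of at least 5 gave identical lengths. The count therefore overstates how many separate checks were passed. OTX1 H3K27me3 was shorter in Boost-Chir past the limits under every alternative run. For the summits, OTX1 H3K4me3 gave 0.512 with all summits summed, a sum that falls when peaks merge, and OTX2 H3K4me3 gave 1.56 by the authors' fold enrichment. The summit with the most reads, added after seeing the data, moved no ratio out of its interval. The share of tiles with longer H3K4me3 was 19.8% with 20 kb tiles. With tiles that hold both marks, it was 15.5% for longer and 3.05% for shorter H3K4me3, and 8.88% for longer and 18.3% for shorter H3K27me3. Leaving out peaks of the deeper library that would be too weak at the shallower depth removed no peak of the windows. Every covered length stayed the same to the bp, so this gives no check on depth there. It also narrows no wide peak.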
